A study of Mus musculus with 8 samples.

Results

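The genes described here are 8 chemokine receptor genes, Ccr1, Ccr2, Ccr3, Ccr7, Ccr9, Ccrl2, Cx3cr1 and Cxcr4, and Cx3cl1, the gene of the ligand of CX3CR1. They are the rows of the deposited count tables that carry these symbols, 9 of 53735 listed genes. Of these 9, 8 passed the filter on low counts, as did 14418 genes in all, and Ccr7 did not. RNA-seq measured their mRNA levels in bone marrow derived macrophages (BMDMs), which were differentiated in culture for 7 days from the bone marrow of male mice aged 6 months on a C57BL/6J background. WT mice were Mkl1+/+, Apoe-/- and KO mice were Mkl1-/-, Apoe-/-, so that Apoe was absent from both groups. The Mkl1 knockout is global and not limited to macrophages, and mice of both genotypes had received angiotensin II (Ang II, 1.44 mg/kg/day) from osmotic minipumps for 7 days before the marrow was taken. Experiment 1 held WT libraries 1 and 2 and KO libraries 5 and 6, and experiment 2 held WT libraries 3 and 4 and KO libraries 7 and 8. The labels do not say in words that every library came from its own mouse and culture, so the p-values measure the spread between these libraries. MKL1, also called MRTF-A, is a coactivator of the transcription factor SRF. The comparison of KO with WT asks how the mRNA levels of the receptors differ when Mkl1 is disrupted in mice exposed to Ang II.

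Chemokine receptors are G protein coupled receptors with which leukocytes read gradients of chemokines and move along them. CCR2 brings monocytes out of the marrow and into inflamed tissue, CX3CR1 binds the membrane-anchored chemokine CX3CL1 (fractalkine) and marks patrolling monocytes and several resident macrophages, and CXCR4 holds cells in the marrow through its ligand CXCL12. CCR1 binds several inflammatory CC chemokines, CCR3 is the eotaxin receptor of eosinophils, CCR7 guides dendritic cells and T cells to lymph nodes, and CCR9 guides T cells to the gut. CCRL2 is an atypical receptor that binds the chemoattractant chemerin and presents it without coupling to G proteins.

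Totals lay between 33977799 and 41584540 counts per library. Mkl1 itself had 25.6 to 29.6 CPM (counts scaled to a common library total) in WT, 19.5 and 20.9 CPM in KO of experiment 1, and 14.6 and 10.4 CPM in KO of experiment 2, so reads on the targeted gene were fewer in KO but present. The 10 macrophage markers examined (among them Adgre1, Csf1r and Lyz2) were all tested and summed to 16027 to 36521 CPM. Single macrophage markers moved in both directions, 6 higher and 3 lower in KO of experiment 1 and 3 higher and 2 lower in experiment 2, with log2 fold changes of -2.11 and 0.91 for Adgre1 and of 0.82 and -1.28 for Csf1r (all 4 past the threshold). At this threshold (adjusted p under 0.05, edgeR), 27.0% of all tested genes were higher and 28.1% lower in experiment 1, and 7.52% and 8.29% in experiment 2. Markers of lymphocytes were near 0, with Cd3e at 0 in every library, and the 8 markers of eosinophils, mast cells and basophils summed to 2.87 and 3.82 CPM in KO of experiment 1 and to 0.49 to 1.47 CPM elsewhere, with Epx, Il5ra and Gata1 at 0 and Siglecf, the tested one, with a log2 fold change of 0.80 in experiment 1 (adjusted p = 0.0772, edgeR). Fibroblast markers summed to 178 and 235 CPM in KO libraries 5 and 6 and to between 2.18 and 12.1 CPM elsewhere. Over all tested genes, WT of experiment 1 lay closest to KO of experiment 2 (SD of the log2 difference between group means 0.41, 395 genes more than 2-fold apart). The other pairs of groups, those within an experiment included, had SDs of 0.84 to 0.98. Of the 8 tested members, 2 were more than 2-fold apart in that closest pair of groups, against 6 between WT and KO within experiment 1 and 7 within experiment 2, where 2301 and 2112 of all tested genes were. Whether labels of libraries were exchanged between the experiments was not tested. Mkl1 was lower in every KO library than in WT of either experiment, which does not bear on the experiment a KO library came from. An exchange would change the folds within each experiment and the interaction, so values are given for each library.

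Of the 24 receptor genes examined, these 8 and the 16 others described after them, 14 lie on chromosome 9 in the mouse genome (GRCm38, GENCODE M21 annotation). Ccr9 (chr9:123678439-123784330, plus strand), Ccr1 (chr9:123962124-123968692, minus strand), Ccr3 (chr9:124021972-124031689, plus strand) and Ccr2 (chr9:124101950-124113557, plus strand) lie within 435.1 kb that hold 10 protein-coding genes, 7 of them receptors examined here. Cx3cr1 (chr9:119901616-120069879, minus strand) lies 3.61 Mb and Ccrl2 (chr9:111054486-111057519, minus strand) 12.6 Mb from Ccr9. Cxcr4 is at chr1:128588199-128592293 (minus strand), Ccr7 at chr11:99144196-99155077 (minus strand) and Cx3cl1 at chr8:94772009-94782427 (plus strand). In experiment 1 the log2 fold changes of KO against WT had both signs in this stretch, with -2.84 for Ccr9, 2.02 for Ccr1, -1.94 for Ccr3 and 6.33 for Ccr2. In experiment 2 those of Ccr9 (-2.75), Ccr1 (-1.75) and Ccr2 (-3.03) were negative and that of Ccr3 was 0.10.

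The promoters of 4 genes are shown because Cxcr4 and Ccrl2 differed in the same direction in both experiments, Cx3cl1 was the member with the level profile closest to Ccrl2, and Ccr9 had fewer counts in every KO than in any WT library. Each runs 5′ to 3′ on the strand of its gene, from 250 bases before to 50 bases after the start site in RefSeq (GRCm38.p6), with matches to the motifs named below in capitals.
Cxcr4 (chr1:128592250-128592549, minus strand): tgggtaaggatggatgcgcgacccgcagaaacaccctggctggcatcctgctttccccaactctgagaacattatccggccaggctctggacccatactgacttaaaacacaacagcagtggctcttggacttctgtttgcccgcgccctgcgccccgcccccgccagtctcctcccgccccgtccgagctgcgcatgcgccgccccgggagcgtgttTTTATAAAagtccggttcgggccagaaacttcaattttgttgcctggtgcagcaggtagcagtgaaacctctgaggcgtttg
Ccrl2 (chr9:111057469-111057768, minus strand, the most upstream of its 3 RefSeq starts): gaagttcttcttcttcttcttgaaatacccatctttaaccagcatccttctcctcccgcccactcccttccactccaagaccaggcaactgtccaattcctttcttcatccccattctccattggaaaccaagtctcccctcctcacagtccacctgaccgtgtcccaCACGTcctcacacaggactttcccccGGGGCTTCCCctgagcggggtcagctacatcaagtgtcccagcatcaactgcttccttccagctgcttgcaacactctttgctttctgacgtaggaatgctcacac
Cx3cl1 (chr8:94771930-94772229, plus strand): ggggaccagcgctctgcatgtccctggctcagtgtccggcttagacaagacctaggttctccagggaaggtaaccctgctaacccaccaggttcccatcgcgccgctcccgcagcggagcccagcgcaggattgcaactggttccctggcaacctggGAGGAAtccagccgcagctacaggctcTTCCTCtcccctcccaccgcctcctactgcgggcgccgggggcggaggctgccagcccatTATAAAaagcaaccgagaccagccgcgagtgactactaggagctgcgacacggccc
Ccr9 (chr9:123766961-123767260, plus strand): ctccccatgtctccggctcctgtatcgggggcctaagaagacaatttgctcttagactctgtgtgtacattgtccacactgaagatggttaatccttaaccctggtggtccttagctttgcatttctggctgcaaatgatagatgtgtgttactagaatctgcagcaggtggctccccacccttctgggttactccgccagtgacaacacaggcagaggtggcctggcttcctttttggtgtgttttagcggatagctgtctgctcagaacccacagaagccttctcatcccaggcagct
Searched on both strands were the NF-κB site (κB), the CArG box of SRF, the PU.1 core GAGGAA, the interferon-stimulated response element (ISRE), the AP-1 site TGANTCA, the hypoxia core ACGTG and the TATA box TATAAA. These were present in 8.46%, 1.63%, 28.3%, 3.44%, 7.81%, 19.6% and 13.6% of 32851 promoters of the same length, in that order. The Cxcr4 window holds a TATA box that begins 30 bases before the start site, overlapped by a match on the other strand. The window of Ccrl2 holds 1 κB match, GGGGCTTCCC, which begins 56 bases before the start and reads as a site on both strands, and 1 hypoxia core. That of Cx3cl1 holds a pair of PU.1 cores and a TATA box beginning 6 bases before the start, and that of Ccr9 holds none of the motifs. Among the members not shown, the windows of Ccr1 and Ccr3 each hold a κB match and a PU.1 core, that of Ccr3 also an AP-1 site, and those of Ccr2 and Cx3cr1 hold none. No CArG match lies in the window of any of the 8 members with an entry, which draws on 300 bases a gene and does not bear on sites elsewhere.

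**Figure D1:**
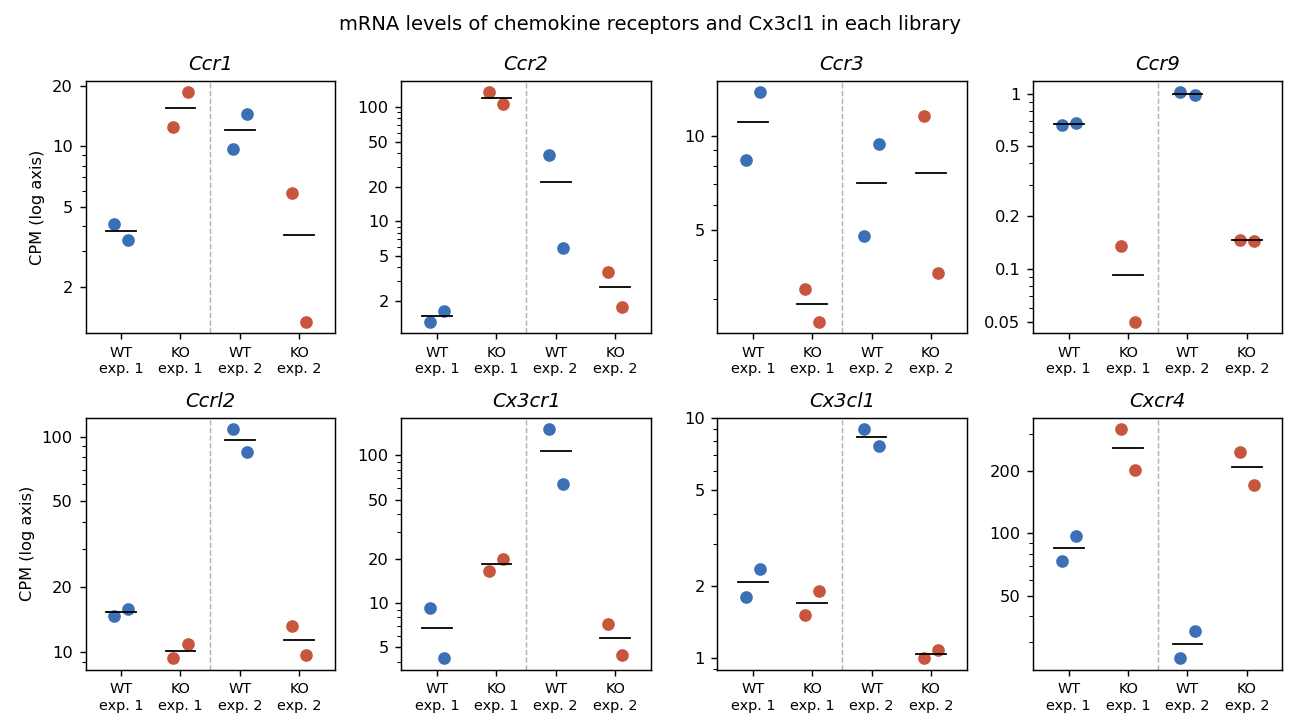
Level of each tested member in each library, in CPM on a log axis whose range differs between panels. Blue points are WT and red points KO libraries, the black line is the mean of the 2 libraries of a group, and the dashed line separates the experiments. Cxcr4 lies higher in all 4 KO libraries than in any WT library, and Ccr9 and Ccrl2 lie lower, for Ccr9 at 6 counts or fewer.

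Within experiment 1, 6 of the 8 tested members differed between KO and WT, 3 higher (Ccr1, Ccr2, Cxcr4) and 3 lower (Ccr3, Ccr9, Ccrl2), at an adjusted p under 0.05 in edgeR's quasi-likelihood test. Of all tested genes, 55.1% were past this threshold there, 27.0% higher and 28.1% lower, so the share among the members stands against a high background. Ccr9 passed the filter on low counts only through its WT libraries, so its lower KO level was fixed by that filter, and without it 5 of 7 members differed. Within experiment 2, 5 of 8 differed, 1 higher (Cxcr4) and 4 lower (Ccr9, Ccrl2, Cx3cr1, Cx3cl1), where 15.8% of all tested genes did, 7.52% higher and 8.29% lower, and without Ccr9 4 of 7. The median log2 fold change of the 7 members other than Ccr9 was 1.41 in experiment 1 and -3.00 in experiment 2, and that of all tested genes was 0.01 in both. The members past the threshold in the same direction in both experiments were Cxcr4, Ccrl2 and, with its direction fixed by the filter, Ccr9. None was past it in opposite directions with edgeR fitted within each experiment. At an unadjusted p under 0.05 there were 2 such members, Ccr2 and Cx3cr1, and 13.5% of all tested genes. The edgeR fit of all 8 libraries in 4 groups called 3 in opposite directions (Ccr1, Ccr2 and Cx3cr1, against 1445 of the 14418 tested genes), DESeq2 2 (Ccr1 and Cx3cr1, against 8.45%) and limma-voom 1 (Cx3cr1, against 6.22%). Of all tested genes, 4.38% were past the threshold in the same and 6.34% in opposite directions with edgeR within experiments. In the fit of both experiments with the experiment as a term, Cxcr4 was higher, 1 of the 7 members other than Ccr9, against 7.12% of all tested genes (3.72% higher and 3.41% lower).

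**Figure D2:**
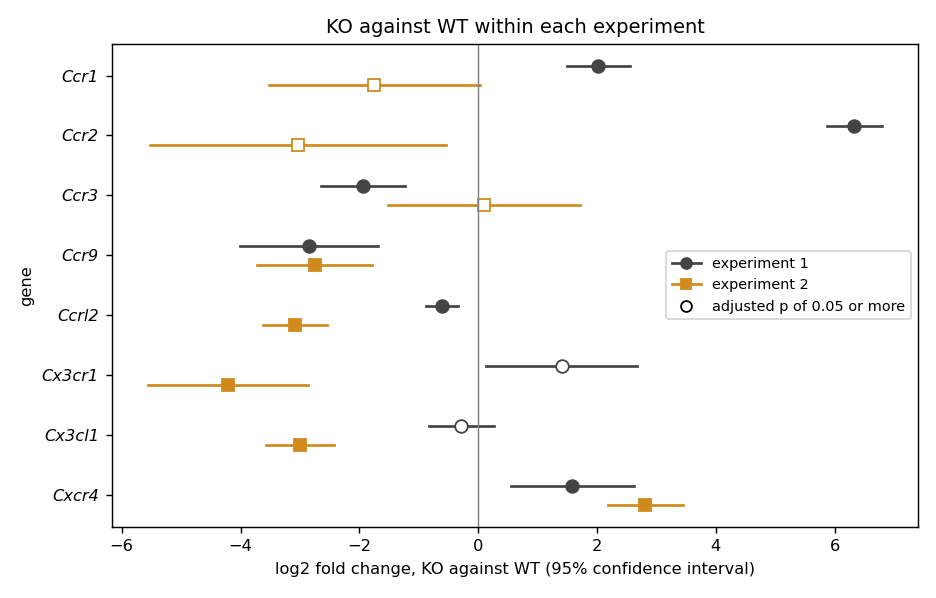
Log2 fold change of KO against WT for each tested member, with its 95% confidence interval from edgeR. Dark circles are experiment 1, orange squares are experiment 2, and open symbols mark an adjusted p of 0.05 or more. The intervals of Ccr9 overlap between the experiments, while those of Ccr2 lie on opposite sides of 0.

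Cxcr4, the receptor of CXCL12, was the most highly expressed receptor of the set per length in 3 of the 4 groups and the member higher in KO in both experiments. It had 73.4 and 97.0 CPM in WT libraries 1 and 2 and 316 and 200.1 CPM in KO libraries 5 and 6 of experiment 1. In experiment 2 it had 25.2 and 34.0 CPM in WT libraries 3 and 4 and 245 and 171 CPM in KO libraries 7 and 8. Every KO library lay above every WT library, as was the case for 6.46% of all tested genes (12.7% had no overlap in either direction), and the two-sided exact permutation test over the 8 libraries gave p = 0.0286, the smallest it allows. Restricted to exchanges inside each experiment, the same exact permutation test gave p = 0.0556, again the smallest possible. The rise was 3.00-fold in experiment 1 (log2 fold change 1.59, SE 0.32, adjusted p = 0.0330, edgeR) and 7.04-fold in experiment 2 (2.82, SE 0.25, adjusted p = 0.00756). Both experiments together gave 2.20 (SE 0.32, adjusted p = 0.0131, edgeR). The call in experiment 1 was lost without WT library 1 (adjusted p = 0.187) or WT library 2 (0.159) and when all genes with at least 1 count were kept (0.157). The joint call was lost without WT library 1, WT library 4 or KO library 5 (adjusted p = 0.0556, 0.0510 and 0.0545). The direction held in each of these fits. Fibroblast marker sums were high in KO of experiment 1 and at most 12.1 CPM in KO of experiment 2, and their part in the level of Cxcr4 was not tested.

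The larger difference in experiment 2 went with lower WT levels. WT of experiment 2 was below WT of experiment 1 for Cxcr4 (log2 fold change -1.53, SE 0.28, adjusted p = 0.00687, edgeR), while the KO groups differed by -0.31 (95% confidence interval -0.94 to 0.32). The change of the KO effect between experiments was 1.22 (SE 0.39, adjusted p = 0.0394, interaction test of edgeR), and this call was lost in 5 of the 8 fits that left out 1 library (WT library 2, 3 or 4, KO library 6 or 7, adjusted p between 0.0559 and 0.148). Without WT library 2 or 3 the call between the WT groups was lost too (adjusted p = 0.0639 and 0.0561). In bulk samples, fewer cells of a type and less RNA per cell cannot be told apart.

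Ccrl2, the atypical chemerin receptor, was lower in KO in both experiments, slightly in the first and strongly in the second. Its levels were 14.7 and 15.9 CPM in WT libraries 1 and 2 and 9.33 and 10.9 CPM in KO libraries 5 and 6. In experiment 2, WT libraries 3 and 4 had 108 and 84.7 CPM, and KO libraries 7 and 8 had 13.2 and 9.66 CPM. All KO libraries lay in a narrow band below all WT libraries (all KO below all WT in 6.25% of tested genes, two-sided exact permutation test, p = 0.0286, within experiments 0.0556). Ccrl2 fell by 0.61 on the log2 scale in experiment 1 (SE 0.11, adjusted p = 0.00255, edgeR), a 1.52-fold difference, and by 3.08 in experiment 2 (SE 0.21, adjusted p = 0.00510), an 8.45-fold difference. These effects differed by -2.49 (SE 0.25, adjusted p = 0.000556, interaction test). The difference came with WT levels that were 6.31-fold higher in experiment 2 than in experiment 1 (log2 2.66, SE 0.18, adjusted p = 0.000259), whereas the KO groups differed by 0.17 (95% confidence interval -0.25 to 0.59). In the joint fit the adjusted p was 0.0857 with edgeR, 0.00137 with DESeq2 and 0.0426 with limma-voom. No fit that left out 1 library lost the call in either experiment.

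Cx3cl1, the fractalkine gene, was expressed at low levels, and its difference between KO and WT was seen in experiment 2. WT libraries 1 and 2 had 1.79 and 2.35 CPM and KO libraries 5 and 6 had 1.51 and 1.90 CPM, so that the groups overlapped. In experiment 2, WT libraries 3 and 4 had 8.99 and 7.65 CPM and KO libraries 7 and 8 had 1.00 and 1.08 CPM. The log2 fold change was -0.28 in experiment 1 (SE 0.24, adjusted p = 0.346, edgeR, 95% confidence interval -0.83 to 0.27) and -3.00 in experiment 2 (SE 0.23, adjusted p = 0.00541), which is 7.98-fold lower. The effects differed by -2.72 (SE 0.32, adjusted p = 0.000896, interaction test). Like Ccrl2, Cx3cl1 was higher in WT of experiment 2 than in WT of experiment 1 (4.02-fold, log2 2.01, SE 0.22, adjusted p = 0.000949).

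Cx3cr1, the receptor of fractalkine, was lower in KO in experiment 2, where its WT level was high. The WT libraries had 9.27 and 4.22 CPM in experiment 1 and 150 and 64.3 CPM in experiment 2. KO libraries 5 and 6 had 16.5 and 19.9 CPM, above both WT libraries of their experiment, and KO libraries 7 and 8 had 7.17 and 4.44 CPM, below both of theirs. The log2 fold change was 1.41 in experiment 1 (SE 0.43, adjusted p = 0.0657, edgeR), past the threshold without WT library 1 (2.10, adjusted p = 0.000152) or WT library 2 (0.97, adjusted p = 0.00191), with DESeq2 (0.0244) and with limma-voom (0.00453). Cx3cr1 fell by 4.21 on the log2 scale in experiment 2 (SE 0.52, adjusted p = 0.0154), or 18.5-fold, and this call was lost without KO library 7 or 8 (adjusted p = 0.0548 and 0.0897) and when all genes with at least 1 count were kept (0.143). Without WT library 3 the value was -3.47 (adjusted p = 0.0152). The effects differed by -5.63 between the experiments (SE 0.70, adjusted p = 0.00110, interaction test), and WT levels were 15.8-fold higher in experiment 2 (log2 3.98, SE 0.51, adjusted p = 0.00174). Exons of Cx3cr1 overlap those of Gm33858 on the opposite strand over 78 bases, and that gene is not in the count tables. Receptor and ligand shared the high WT level of experiment 2, but in experiment 1 the receptor had a positive and the ligand a negative log2 fold change. In the joint fit neither was past the threshold (-1.39 for Cx3cr1, adjusted p = 0.634, and -1.64 for Cx3cl1, adjusted p = 0.142, edgeR), while DESeq2 called Cx3cl1 (adjusted p = 0.0171).

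Ccr2, the receptor that carries monocytes out of the marrow, showed the widest range of the members. It was low in WT libraries 1 and 2 (1.33 and 1.64 CPM) and abundant in KO libraries 5 and 6 (135 and 106 CPM). In experiment 2 the WT libraries differed 6.45-fold from each other, with 38.0 CPM in library 3 and 5.89 CPM in library 4, and KO libraries 7 and 8 had 3.59 and 1.77 CPM. KO was thus above WT in experiment 1 and below it in experiment 2. The rise in experiment 1 was 80.7-fold (log2 fold change 6.33, SE 0.18, adjusted p = 6.52e-06, edgeR). The log2 fold change of -3.03 in experiment 2 (SE 0.96, adjusted p = 0.100) was past the threshold without WT library 4 (-3.82, adjusted p = 0.0207) or with all 8 libraries fitted in 4 groups (adjusted p = 0.0224). Without WT library 3 it shrank to -1.14 (adjusted p = 0.243), and without KO library 7 it was -3.62 (adjusted p = 0.198). The effects differed by -9.38 (SE 1.19, adjusted p = 0.00117, interaction test), and the joint fit gave 1.58 with a 95% confidence interval from -7.14 to 10.3. Between experiments, Ccr2 was higher in WT of experiment 2 (log2 3.89, SE 0.85, adjusted p = 0.0131, lost without WT library 1 or 2, 0.0909 and 0.106, and with limma-voom, 0.0819) and lower in KO of experiment 2 (-5.49, SE 0.84, adjusted p = 0.00383). How reads shared by close paralogs of Ccr2 were counted is not given in the sources used here.

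The 3 libraries with the highest Ccr2 also had the highest sums over the monocyte markers examined. The 8 monocyte markers, of which 5 were tested, summed to 88.8 and 90.9 CPM in KO of experiment 1 and to 191 CPM in WT library 3, against 15.5 to 55.3 CPM in the other libraries. Ly6c2 and Chil3, which define classical monocytes, had at most 0.22 CPM in any library, and the high sum of WT library 3 came mostly from Ms4a4c (154 CPM). In KO libraries 5 and 6, most of the sum came from Fn1 (36.5 and 34.0 CPM) and Vcan (30.0 and 29.5 CPM). Neither was past the threshold in experiment 1 (adjusted p = 0.0586 and 0.173, edgeR), and Vcan had 22.9 CPM in WT library 1, where Ccr2 was low. In experiment 1, 3 of 5 tested monocyte markers (4 with DESeq2 and 5 with limma-voom), 2 of 3 tested dendritic cell markers and 7 of 7 tested fibroblast markers were higher in KO with edgeR, where 27.0% of all tested genes were. In experiment 2 none of these was higher with edgeR, DESeq2 or limma-voom, nor at an unadjusted p under 0.05 (0 of each list), and 1 monocyte marker was lower. Dendritic cell markers summed to 33.0 and 42.0 CPM in KO of experiment 1 and to 4.43 to 10.9 CPM elsewhere, with Flt3, Cd209a, Siglech and Klrd1 at 3 counts or fewer in every library. Endothelial markers summed to 165 and 191 CPM and osteoclast markers to 113 and 119 CPM in KO of experiment 1, against 72.1 to 90.7 and 53.1 to 57.9 CPM in its WT. In experiment 2 both were lower in KO (68.6 to 107 and 33.2 to 45.1 CPM) than in WT (118 to 224 and 64.3 to 146 CPM). Single markers of both lists went against these sums. Of 5 tested osteoclast markers, 1 was higher and 2 were lower in experiment 1 (median log2 fold change -0.27), with 2.15 for Atp6v0d2, -1.71 for Acp5 and -3.01 for Mmp9, and 1 was higher and 2 were lower in experiment 2. Of 4 tested endothelial markers, 2 were higher and none lower in experiment 1 (at an unadjusted p under 0.05, 2 and 1, and with DESeq2 and limma-voom 2 and 0). In experiment 2, 1 was higher (Pecam1, 1.62) and 1 lower (2 lower with DESeq2, with limma-voom and at an unadjusted p under 0.05). These counts stand against 55.1% and 15.8% of all tested genes past the threshold in experiments 1 and 2. The part of these cells in the levels of Ccr2 and Ccr1 was not tested.

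Ccr1, a receptor of inflammatory CC chemokines such as CCL3 and CCL5, had opposite signs in the 2 experiments. WT libraries 1 and 2 had 4.11 and 3.43 CPM and KO libraries 5 and 6 had 12.5 and 18.5 CPM. WT libraries 3 and 4 had 9.70 and 14.5 CPM, and KO libraries 7 and 8 had 5.86 and 1.34 CPM, a 4.36-fold difference between replicates. No library of KO overlapped with WT of its own experiment, but the direction changed. Ccr1 rose 4.07-fold in experiment 1 (log2 fold change 2.02, SE 0.22, adjusted p = 0.000454, edgeR). In experiment 2 its log2 fold change was -1.75 (SE 0.69, adjusted p = 0.152), past the threshold without KO library 7 (-3.17, adjusted p = 0.0411), with DESeq2 (0.0202) and with all 8 libraries in 4 groups (0.0482). Without KO library 8 it shrank to -1.04 (adjusted p = 0.165). The difference of -3.78 between the effects (SE 0.80, adjusted p = 0.00853, interaction test) was lost without WT library 2 (adjusted p = 0.0548).

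Ccr3, the eotaxin receptor, was lower in KO in experiment 1. Its levels there were 8.34 and 13.7 CPM in WT and 3.25 and 2.55 CPM in KO. This 3.83-fold fall (log2 fold change -1.94, SE 0.28) had an adjusted p of 0.00217 with edgeR. In experiment 2 the WT libraries had 4.77 and 9.37 CPM and the KO libraries 11.5 and 3.65 CPM, so that the groups overlapped (0.10, SE 0.62, adjusted p = 0.927). The KO libraries of experiment 2 were 3.16-fold apart. The change of the effect between experiments was 2.03 (95% confidence interval 0.21 to 3.85, adjusted p = 0.0723), past the threshold with DESeq2 (0.0130) and without KO library 8 (0.0144). In the same KO libraries of experiment 1 the markers of eosinophils, mast cells and basophils had their highest sums (2.87 and 3.82 CPM), and their part in the level of Ccr3 was not tested.

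Ccr9, the gut homing receptor, was close to the limit of detection. It had 27, 23, 37 and 34 counts in WT libraries 1 to 4 and 5, 2, 6 and 6 counts in KO libraries 5 to 8, or 0.66 to 1.01 CPM in WT and 0.050 to 0.15 CPM in KO. It passed the filter on low counts only through the WT libraries, so a lower level in KO was fixed by that filter. As a description, the log2 fold change was -2.84 in experiment 1 (SE 0.50), -2.75 in experiment 2 (SE 0.38) and -2.78 in both (SE 0.29), and in experiment 1 it was -3.67 without KO library 5. The values of the experiments differed by 0.08 (95% confidence interval -1.15 to 1.31). On the annotation used here, exons of Ccr9 overlap those of AC165425.1 on the opposite strand over 1932 bases and those of Gm17200 on the same strand over 269 bases, neither of which is listed in the count tables. How reads there were assigned, and with which strand setting, is not given in the sources used here, so the counts of Ccr9 are uncertain as to their gene of origin.

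Ccr7, the lymph node homing receptor, was not tested. It had 2, 1, 5 and 2 counts in WT libraries 1 to 4 and 2, 0, 3 and 2 counts in KO libraries 5 to 8, 17 counts in all. A difference in Ccr7 was not detectable at this depth (log2 fold change -0.61, SE 1.73, in experiment 1 and -0.66, SE 1.02, in experiment 2, with all genes of at least 1 count kept).

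**Figure D3:**
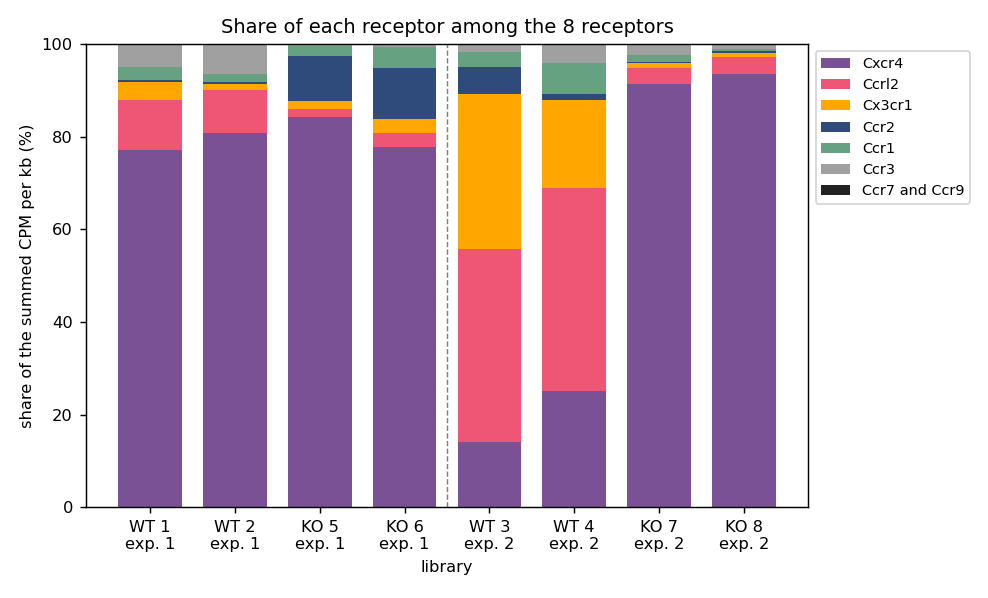
Share of each of the 8 receptors in their summed level, in CPM per kb of exon, for each library, with the dashed line between experiments. Cxcr4 takes most of the sum in 6 libraries, and Ccrl2 and Cx3cr1 take most of it in WT libraries 3 and 4.

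Levels per kb of exon gave the makeup of these 8 receptors, with exon lengths from an annotation that may differ from that used for counting. Other receptors are left out, of which Cxcr3 and Cmklr1 had 3.51 and 2.33 CPM per kb in KO of experiment 1, against 0.89 for Ccr3. The sum over the 8 receptors was 52.6 and 66.4 CPM per kb in WT of experiment 1, 99.5 and 74.6 in WT of experiment 2, 207 and 142 in KO of experiment 1, and 149 and 101 in KO of experiment 2. Cxcr4 made up a mean of 79.0% of this sum in WT of experiment 1, 81.0% in KO of experiment 1 and 92.4% in KO of experiment 2, but 19.6% in WT of experiment 2. In WT of experiment 2, Ccrl2 (42.8%) and Cx3cr1 (26.3%) stood ahead of it in the mean, although the ranges of Ccrl2 and Cx3cr1, and of Cx3cr1 and Cxcr4, overlapped. Ccrl2 was second to Cxcr4 in WT of experiment 1 and KO of experiment 2, without overlap with its neighbours. In KO of experiment 1 the second place was taken by Ccr2 with a mean share of 10.3%, clear of Ccr1 below it, while Ccr1, Cx3cr1 and Ccrl2 followed with overlapping neighbours. Cx3cr1 and Ccr1 overlapped in both WT of experiment 1 and KO of experiment 2. Ccr9 and Ccr7 came last in every group, and at the few counts that both had their order is not informative.

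The comparisons above share libraries with those between experiments. In WT, 5 of 8 members differed between experiments, Ccr2, Ccrl2, Cx3cr1 and Cx3cl1 higher and Cxcr4 lower in experiment 2, where 31.1% of all tested genes differed (15.7% higher and 15.4% lower). In KO, 3 of 8 differed, Ccr1, Ccr2 and Cx3cr1, all lower in experiment 2, where 32.8% of all tested genes differed (17.5% higher and 15.3% lower). Ccr1 in KO fell by 2.11 on the log2 scale (SE 0.57, adjusted p = 0.0270, edgeR) and Cx3cr1 by 1.65 (SE 0.49, adjusted p = 0.0367). Without WT library 1 or 2 or KO library 5 or 6 the call of Ccr1 was lost, and that of Cx3cr1 was lost without WT library 2 or any of the 4 KO libraries. The interaction test was past the threshold for 6 of 8 members (1 upward, Cxcr4, and 5 downward), against 41.6% of all tested genes (21.0% upward and 20.6% downward). The 2 others were Ccr3 and Ccr9.

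Of 16 other chemokine receptor and chemerin receptor genes, 2 were tested, Cxcr3 and Cmklr1. Both were higher in KO of experiment 1 with edgeR, as were 27.0% of all tested genes. Cxcr3 had log2 fold changes of 1.40 (SE 0.18, adjusted p = 0.000284) and 1.05 (SE 0.49, adjusted p = 0.205), and Cmklr1, the signalling chemerin receptor, of 1.44 (SE 0.33, adjusted p = 0.0153) and -0.60 (SE 0.64, adjusted p = 0.553), in experiments 1 and 2. In the interaction test of edgeR neither was past the threshold (adjusted p = 0.631 and 0.0770), while DESeq2 called 1 of the 2, downward. The other 14, among them Ccr6, Ccr8, Cxcr1, Cxcr2 and Ackr3, had at most 18 counts in a library (Xcr1), and 8 of them at most 3 counts in every library.

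Ligand genes of these receptors, measured in the same libraries, moved in both directions. Of 15 ligand genes, 10 were tested. In experiment 1, 4 were higher in KO (Ccl5, Ccl6, Ccl25, Cxcl12) and 3 lower (Ccl2, Ccl3, Ccl7). In experiment 2 none was higher and 2 were lower (Ccl3, Ccl9) with edgeR. At an unadjusted p under 0.05, with DESeq2 and with limma-voom, 0 were higher and 3 lower there. The 7 and 2 of 10 called by edgeR stand against 55.1% and 15.8% of all tested genes. The median log2 fold change of the tested ligands was 0.12 in experiment 1 and -0.53 in experiment 2. Of the CCR2 ligand genes, Ccl2 and Ccl7 fell in experiment 1, where Ccr2 rose, while Ccl12 was not past the threshold (-0.23, adjusted p = 0.480). Ccl2 had 311 and 325 CPM in WT and 33.4 and 54.9 CPM in KO of experiment 1 (log2 fold change -2.86, SE 0.29, adjusted p = 0.00486, edgeR), and Ccl7 had 180 and 215 CPM in WT and 17.2 and 29.5 CPM in KO (-3.09, SE 0.34, adjusted p = 0.00783). In experiment 2 their log2 fold changes were -0.14 (adjusted p = 0.825) and 0.56 (adjusted p = 0.506).

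Ccl3, a ligand of CCR1, was lower in KO in both experiments. It had 489 and 456 CPM in WT libraries 1 and 2 and 78.8 and 75.6 CPM in KO libraries 5 and 6 (log2 fold change -2.63, SE 0.07, adjusted p = 3.13e-07, edgeR). In experiment 2 it had 1119 and 1056 CPM in WT and 263 and 347 CPM in KO (-1.83, SE 0.19, adjusted p = 0.00886). Ccl9, another ligand of CCR1, had 2886 and 3325 CPM in WT and 889 and 574 CPM in KO of experiment 2 (-2.09, SE 0.26, adjusted p = 0.0132), and -0.22 (SE 0.14, adjusted p = 0.249) in experiment 1. Ccl5 followed the signs of Ccr1, with 2.38 (SE 0.25, adjusted p = 0.000110) in experiment 1 and -3.42 (SE 0.97, adjusted p = 0.0797) in experiment 2. Ccl6 rose in experiment 1 (1.28, SE 0.15, adjusted p = 0.00157) and had 0.10 (adjusted p = 0.932) in experiment 2, and Ccl12 had -1.57 (adjusted p = 0.327) in experiment 2. Cxcl12, the ligand of CXCR4, had 11.0 and 13.5 CPM in KO of experiment 1 and 0.14 to 0.63 CPM in the other 6 libraries (log2 fold change 5.05 in experiment 1, SE 0.30, adjusted p = 1.81e-05). The same 2 libraries held the high fibroblast marker sums, and the part of such cells in the level of Cxcl12 was not tested. The chemerin gene Rarres2 and the CCR7 ligand genes Ccl19 and Ccl21a had at most 0.10 CPM.

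Genes downstream of the receptors had log2 fold changes between -1.53 and 1.42 in experiment 1 and between -0.93 and 0.99 in experiment 2. Of 26 genes of G proteins, their regulators, arrestins, small GTPases and sheddases, all were tested. In experiment 1, 6 were higher and 11 lower in KO with a median log2 fold change of -0.13, and in experiment 2, 4 were higher (Gng2, Rac2, Grk6, Rgs2) and 1 was lower (Adam17) with a median of 0.09. These 17 and 5 of 26 stand against the same 55.1% and 15.8% of all tested genes. The smallest p in experiment 1 were those of Pik3r5, the regulatory subunit of phosphoinositide 3-kinase gamma (487 and 486 CPM in WT, 223 and 215 CPM in KO, log2 fold change -1.16, SE 0.06, adjusted p = 3.86e-06, edgeR), and of Rgs10, a regulator of G protein signalling (72.3 and 71.7 CPM in WT, 209 and 180 CPM in KO, 1.42, SE 0.08, adjusted p = 6.45e-06). In experiment 2 they were those of Grk6, a receptor kinase (0.71, SE 0.10, adjusted p = 0.0163), and Gng2, a G protein gamma subunit (0.79, SE 0.12, adjusted p = 0.0200). Adam17, a protease that sheds CX3CL1 from the cell surface, fell by 0.85 on the log2 scale in experiment 1 (SE 0.10, adjusted p = 0.000485) and by 0.93 in experiment 2 (SE 0.15, adjusted p = 0.0220). Adam10, the other sheddase of the list, had -0.21 (SE 0.06, adjusted p = 0.0119) in experiment 1 and 0.11 (SE 0.11, adjusted p = 0.527) in experiment 2.

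**Figure D4:**
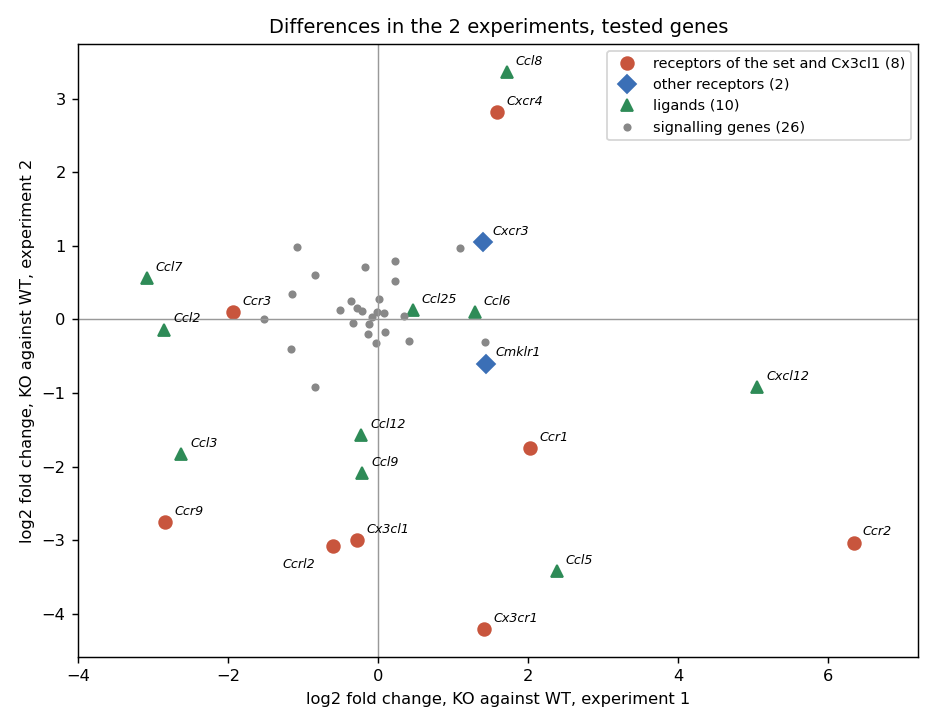
Log2 fold change of KO against WT in experiment 1 (x axis) and experiment 2 (y axis) for the tested members (circles), other receptors (diamonds), ligands (triangles) and signalling genes (dots). Signalling genes lie between -1.53 and 1.42 in experiment 1 and between -0.93 and 0.99 in experiment 2. Among the points at positive values in experiment 1 and negative values in experiment 2 are Ccr2, Cx3cr1, Ccr1, Ccl5, Cxcl12, Cmklr1 and the signalling gene Rgs10. Of these named genes, only Cx3cr1 was past the threshold in experiment 2 with edgeR.

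The closeness of profiles was measured as the root mean square distance between log2 CPM values centred over the 8 libraries. Among the members, Ccrl2 and Cx3cl1 were the closest pair (0.43), while Cx3cr1 was 0.94 from its ligand Cx3cl1 and 0.93 from Ccrl2. Among the genes whose mean log2 CPM was 3 or more, those most like Ccrl2 were Nod2 (0.21) and Lpar1 (0.26), and those most like Cx3cl1 were Nfkb2 (0.25) and Icosl (0.28). The nearest to Cx3cr1 were Gbp2 (0.35) and Cmpk2 (0.35), to Cxcr4 Rnf150 (0.32) and RP23-271B13.1 (0.33), and to Ccr9 Tnip3 (0.36) and Fas (0.37). For Ccr1 they were Padi2 (0.40) and Folr2 (0.40), and for Ccr3 Dio2 (0.28) and Dusp1 (0.36). The nearest to Ccr2 were Thbs1 (0.88) and Scd1 (1.11), beside a spread of its own profile of 2.57, against 1.17 for Ccr1 and 0.85 for Ccr3. This distance grows with a gene's own spread, so the larger values of Ccr2 do not show that genes of like profile are lacking. With 8 libraries in 4 groups, many genes share the same order of groups, and these distances are descriptions.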

How the data were processed

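RNA-seq libraries, 4 of WT and 4 of KO, were made from BMDMs with a kit for stranded mRNA. The submitters' processing notes name GRCm38, STAR 2.7.0f, Subread 1.6.4, featureCounts and DESeq2 1.22.1. The annotation and the strand setting are not given in the sources used here. The authors deposited raw counts per gene, 1 table per experiment, and the same counts normalized within each experiment, which were not used. Genotype and replicate number came from the sample titles, and the experiment from the set of counts, 1 per experiment, in which each library was deposited. The 2 libraries of each group differed by more than counting noise (chi-square per gene 12.3 to 80.2), and each was counted as a replicate.

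Counts were joined by symbol. Genes were kept by filterByExpr by genotype, libraries were scaled by TMM, and CPM were computed from the scaled totals, log2 CPM with a prior count of 2. KO was compared with WT within each experiment by the quasi-likelihood test of edgeR 4.0.16 (R 4.3.3), with Benjamini-Hochberg adjustment over 14418 genes and a threshold of 0.05, then in both experiments with an experiment term. A fit of 4 groups gave the interaction and the comparisons between experiments. Standard errors (SE) were derived from the log2 fold change and its F statistic, and confidence intervals from the SE and the degrees of freedom. Single genes were also compared by exact permutation of the 8 libraries (70 arrangements, 36 within experiments). Alternatives were DESeq2 1.42.0, limma-voom (limma 3.58.1), other scaling, filters, thresholds and groupings, and each library left out. The fits were tested on simulated counts of 14418 genes, with 100 genes changed by 1 and 100 by 2 on the log2 scale. In experiment 1 edgeR recovered 59 and 89 of them with 22 false calls, and in experiment 2 55 and 84 with 21. The joint fit recovered 74 and 94 with 8 false calls. For changes in experiment 2 alone, the interaction test recovered 29 and 69 with 6. Within an experiment and by interaction, many changes of 1 were thus missed.

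The members, gene lists and tests were chosen with earlier results of these data known. Named are all members, every tested other receptor, the tested ligands by count with values for those of at least 10 CPM, the 2 signalling genes with the smallest p in each experiment and the 2 genes nearest to each member. Cxcl12, Adam17, Adam10 and single markers were added after their values were seen. Exon lengths and positions came from GENCODE M21, and promoters from RefSeq, where 8 of 9 members matched by symbol and Ccr7 did not. No protein sequences were used here, and 1 receptor and 1 marker of the planned lists are not reported here. Figures were drawn with matplotlib 3.10.9.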

Additional observations from a re-analysis of the deposited data

Results flagged for a closer look

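For 6 members the KO effect was not the same in both experiments by the interaction test of edgeR, which 41.6% of all tested genes passed. The log2 fold change of KO against WT in experiment 2 minus that in experiment 1 was -9.38 for Ccr2, -5.63 for Cx3cr1, -3.78 for Ccr1, -2.72 for Cx3cl1, -2.49 for Ccrl2 and 1.22 for Cxcr4. For Ccr2, Cx3cr1 and Ccr1 both KO libraries lay above WT in experiment 1 and below WT in experiment 2. How many of all tested genes changed order in this way was not counted. At an unadjusted p under 0.05 in both experiments (edgeR), 13.5% of them had opposite directions. In Ccrl2 and Cxcr4 the direction was shared and the size differed.

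A library also stood far from the others of its genotype in 3 of 18 groups of 4 examined by the gap to its nearest neighbour, where chance alone marks about 1 in 20. WT library 3 had 38.0 CPM of Ccr2, KO library 7 had 11.5 CPM of Ccr3, and KO library 6 had 0.050 CPM of Ccr9, which rests on 2 counts. Each group of 4 spans both experiments.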

How the results depend on the processing

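Over the 8 tested members and 6 comparisons, 632 values were recomputed under an alternative, of which 553 kept direction and side of the threshold, 43 lost and 25 gained the call, and 11 changed sign, none of them a called value. The number of members called was 6 in experiment 1, 5 in experiment 2 and 2 in both, Ccr9 included, and fits that left out 1 library gave 6, 3 to 6 and 1 to 2 (interaction 4 to 7 around 6, WT between experiments 3 to 6 around 5, KO between experiments 1 to 3 around 3). Where that leaves 1 library in a group, it is assumed to vary like the others. At an adjusted p under 0.01, 3 members were called in experiment 2, 1 in both and 1 between the KO groups (234, 208 and 1896 of all tested genes). The joint fit called 4 members with DESeq2 (2492 of all tested genes, against 1027 with edgeR) and 0 without the experiment term (1 higher and 3 lower at an unadjusted p under 0.05), where 4 of all tested genes were called and 2983 had an unadjusted p under 0.05. Of the tested other receptors, ligands and signalling genes, 26 were called in experiment 1, 7 in experiment 2, 4 in both and 18 by interaction. Leaving out 1 library gave 20 to 26, 2 to 4, 3 to 6 and 13 to 25. DESeq2 gave 11 in experiment 2 and 10 in both, the fit of 4 groups 16 in experiment 1 and 12 in experiment 2, a 2-fold minimum 14, 2, 2 and 10, the threshold of 0.01 gave 1 in experiment 2, and no experiment term gave 0 in both. Over all tested genes, DESeq2 called 3173 in experiment 2 and 2492 in both. The fit of 4 groups called 5974 of them in experiment 1 and 4899 in experiment 2. A 2-fold minimum left 2231, 1274, 331 and 3245, and the threshold of 0.01 left 234 in experiment 2. Signs changed for Ccr3 in experiment 2 with limma-voom (-0.043) and without a library (-0.96 to 0.70), and only without a library for Ccr1 (-0.57 to 1.00) and Ccr2 (-1.35 to 4.58) in both experiments, Ccr9 in the interaction (-0.47 to 0.94), and Ccrl2 (-0.054 to 0.38) and Cxcr4 (-0.60 to 0.063) between the KO groups. The cause of these changes was not tested. Of all tested genes, 7948 were called in experiment 1 and 2279 in experiment 2, and without KO library 8 the latter count was 232. No paired analysis was possible because WT and KO libraries share no replicate number. With 17 counts of Ccr7 and 2 to 37 counts per library of Ccr9, depth limits what can be said of both.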
